A study of Mus musculus with 4 samples.

Results

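The genes described here are those of the 4 ErbB receptors of the mouse, Egfr, Erbb2, Erbb3 and Erbb4, and the question is where ARID1A was found around them in 266-6 cells with and without epidermal growth factor (EGF). All positions are in the mouse build mm9. Each gene was given a window that holds the gene with about 100 kb on each side, and every deposited ARID1A peak that overlapped a window was taken. The windows were chr11:16550000-16920000 for Egfr, chr11:98170000-98400000 for Erbb2, chr10:127900000-128130000 for Erbb3 and chr1:67950000-69300000 for Erbb4. They hold 8 of the 11220 peaks of the series, over 2.18 Mb in all. Control replicates 1 and 2 gave 2 and 6 of these peaks, and each EGF library gave 0.

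The cells are 266-6, an established mouse pancreatic acinar line, grown with 4.5 g/L glucose and 10% fetal calf serum. All cultures were starved of serum for about 14 h. The EGF group then received 40 ng/ml EGF for 8 h, and the control group received 0.1% bovine serum albumin. ARID1A was mapped by chromatin immunoprecipitation with sequencing (ChIP-seq), in 2 libraries per group. The labels do not say whether the libraries of a group come from different cultures, so the spread between them may be technical. The p-values below come from exact permutation tests. With 2 libraries per group they stay at their smallest possible value whenever the groups separate fully, so they do not measure that spread.

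ErbB receptors are receptor tyrosine kinases that work in pairs: a ligand brings 2 receptors together, the kinases phosphorylate the partner's tail, and adaptors there switch on the RAS-ERK and PI3K pathways. Egfr binds EGF itself, and Egfr signalling takes part in the change of acinar cells to duct-like cells in the pancreas. Erbb2 has no known ligand of its own and is the preferred partner of the others. Erbb3 binds neuregulins and has a weak kinase, while Erbb4 binds neuregulins and has an active one. ARID1A is the large DNA-binding subunit of the BAF form of the SWI/SNF complexes, which slide and evict nucleosomes, mostly at enhancers and promoters.

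The 4 lists differ in length, in input depth and in their weakest peaks, and each result below rests on that. Control replicates 1 and 2 list 4031 and 7112 peaks, and EGF replicates 1 and 2 list 57 and 20. The read depth recovered from the lists was 1.06 to 1.23 ChIP reads per 200 bp of genome over the 4 libraries. The input background against which peaks were called was deeper for the control lists, at 0.771 reads per 200 bp in each, than for the EGF lists, at 0.506 in each. The smallest −log10 p in a list was 4.43 for control replicate 1 and 4.25 for control replicate 2, and rose to 7.07 for EGF replicate 1 and 8.00 for EGF replicate 2. The input background and the smallest −log10 p follow the groups, so they cannot be told apart from the treatment. The smallest −log10 p is that of the weakest listed peak, so it is an outcome of the call and not a known setting.

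Egfr, the receptor of the added ligand, had a peak within the approximate span of the gene, meaning the window without its outer 100 kb on each side. It lay at chr11:16690017-16690387 in control replicate 2, with its summit 40.2 kb inside the lower edge of that span. The authors' fold of the peak was 7.56, with a −log10 p of 12.5. This fold divides the scaled summit reads by the local input background, after 1 is added to each. Reads are scaled by 1 factor per list, 0.680 in control replicate 2. The summit carried 23 reads (exact Poisson 95% interval 14.6 to 34.5, which covers counting error only), or 20.3 times the genome-wide mean of the library. The local input there was 1.56 times the genome-wide background. This was the strongest of the 8 receptor-window peaks: by the deposited score, which is 10 times the −log10 q, it ranked at the 84.4th percentile of its list. Control replicate 1 had no peak in the Egfr window, and the nearest summit in that list was 198 kb away. At the same local input, 13 reads would have reached the smallest −log10 p of control replicate 1, and the density seen in control replicate 2 would have given 24.0.

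A weaker Egfr-window peak lay at chr11:16850716-16850921, 30.7 kb above the span of the gene and again in control replicate 2 alone. Its 13 summit reads gave a fold of 5.40 and a −log10 p of 6.65, at the 19.2th percentile of the list. Its local input was 1.06 times the background. So both Egfr peaks rest on a single library, and neither was seen in its replicate.

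The Erbb2 window held a single peak, outside the gene. It lay at chr11:98309349-98309554 in control replicate 2, 9.35 kb above the approximate span of Erbb2, with a fold of 6.22, 15 summit reads and a −log10 p of 8.98. Its local input was 1.04 times the background, and its score ranked at the 54.5th percentile. In the order of genes in the reference annotation, Mien1, Grb7 and Ikzf3 follow Erbb2. Grb7 encodes an adaptor that docks on ErbB receptors, and Ikzf3 a lymphoid zinc-finger factor. That annotation is of another build, so the peak was not assigned to any of them. The 30.0 kb taken as the span of Erbb2 itself held no peak in any of the 4 lists.

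Erbb3 had the most peaks in the windows as given, and the only region there that was found in both control lists. With the windows narrowed to the gene spans or extended by 100 kb, Erbb3 and Egfr had equal means over the control lists, 0.5 and 4.0 peaks each. The shared region lay at chr10:127931027-127931267 in control replicate 1 and chr10:127931101-127931455 in control replicate 2. The 2 peaks overlapped by 167 bp, with summits 63 bp apart. The fold was 5.11 in the former and 6.36 in the latter (5.74 ± 0.886, SD, n = 2). Summit reads were 22 and 21, which is 18.6 and 18.5 times the genome-wide mean of each library. The reads were thus nearly the same in both, while the local input at the summit was 2.00 and 1.40 reads per 200 bp. The lists of a group have the same input background, so these 2 input values are not replicate measures of it. This region lies 68.7 and 68.5 kb below the approximate span of Erbb3, outside the gene.

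The other 3 Erbb3-window peaks were each called in 1 control list. In control replicate 1, a second peak lay 5.08 kb from the shared region at chr10:127936049-127936278, with 19 summit reads, a fold of 5.14 and a local input of 2.07 times the background. In control replicate 2, chr10:127986200-127986594 lay 13.4 kb below the gene span, with 16 reads and a fold of 5.40. The peak at chr10:128003415-128003670 was the one Erbb3 peak inside the span, 3.55 kb from its lower edge by the summit. The span taken is 30.0 kb and only approximate, so this does not show whether the peak is inside the gene. It was also the weakest by fold of the 8, at 4.41, with 18 reads over a local input 2.59 times the background. In the reference order the neighbours of Erbb3 are Zc3h10, Rpl41 and Pa2g4 on one side and Rps26, Ikzf4 and Suox on the other. Pa2g4 encodes EBP1, a protein first described as a partner of Erbb3.

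**Figure D1:**
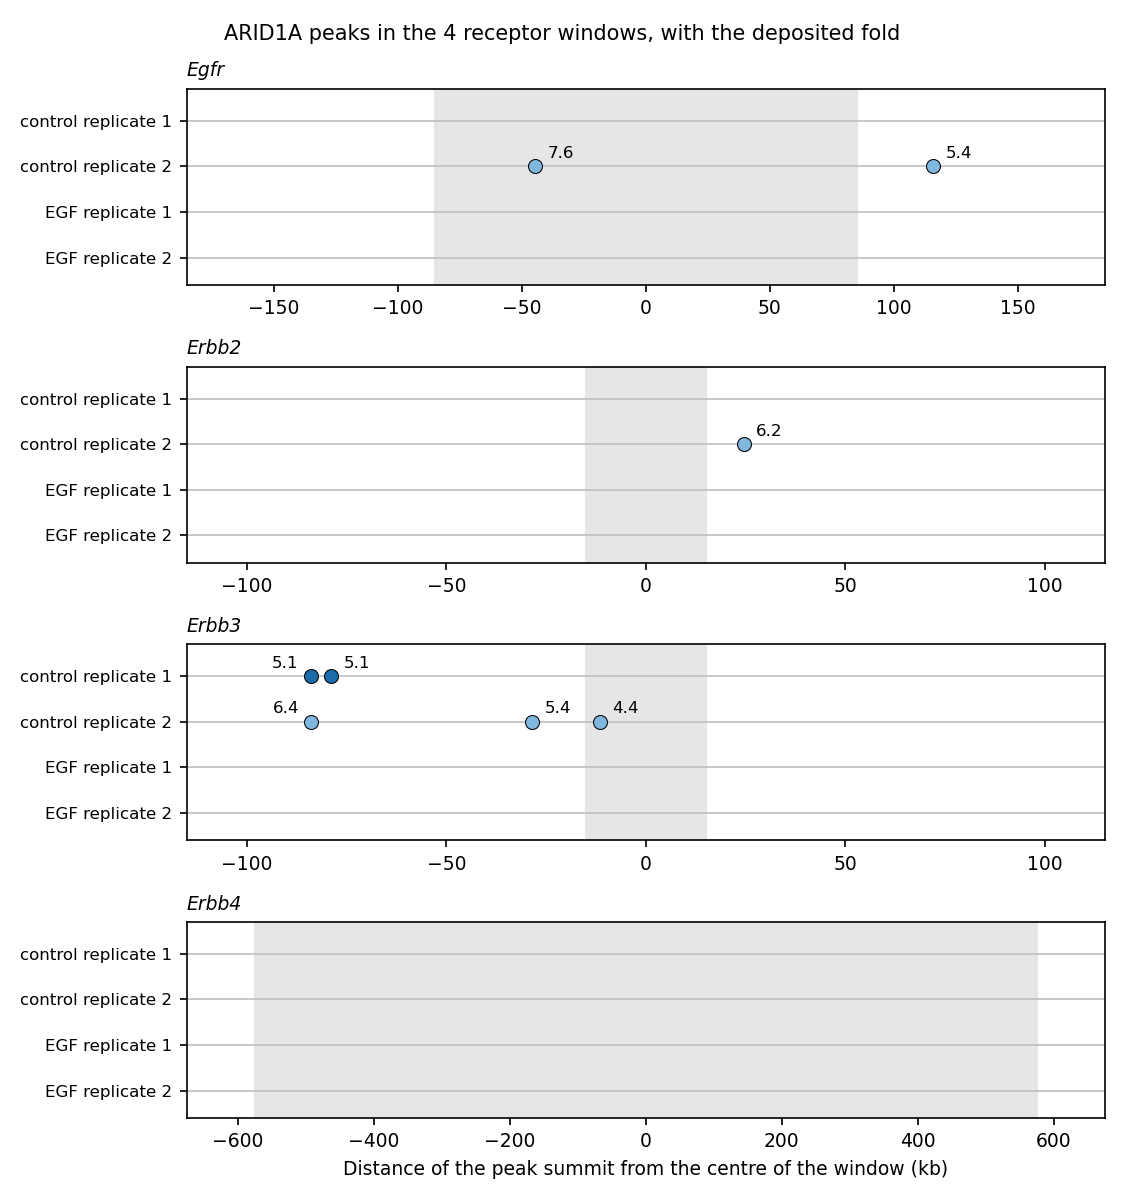
Summits of ARID1A peaks (points) in the windows of the 4 receptor genes, by distance from the window centre in kb, with 1 line per library; the number beside a point is the deposited fold and the shaded band is the approximate span of the gene. All points lie on the control lines, Erbb3 has 2 and 3 of them, and Erbb4 has none.

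Erbb4 had no ARID1A peak in any of the 4 libraries. Its window is the longest, 1350 kb, and the mean density of the control lists would correspond to 2.19 and 3.81 peaks in that length. The emptiness went well beyond the window. In control replicate 1 the stretch without a peak ran from chr1:66909368 to chr1:71354063, or 4445 kb. In control replicate 2 the peak-free stretch was 7759 kb. Only a stretch of at least 1350 kb can hold the window, and of those, 90 of 468 (19.2%) in control replicate 1 and 19 of 416 (4.57%) in control replicate 2 were longer. With both control lists together the stretch was again 4445 kb, and 61 of 394 (15.5%) were longer. Each stretch counts once here, so longer stretches, in which a window falls more often, are not given more weight.

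Empty windows are common in these lists, and the absence at Erbb4 has to be read against that. When all chromosomes were cut into tiles of 1350 kb, from the first to the last control peak, 27.8% of the 1857 tiles held no peak of either control list. The share was 39.1% for control replicate 1 and 30.3% for control replicate 2. Chromosome 1 as a whole had 1.40 and 2.22 control peaks per Mb, against 1.63 and 2.82 in the whole lists. By calculation at the genome-wide background, 10 reads at a summit would reach the smallest −log10 p of control replicate 1 and 9 that of control replicate 2. The fewest reads at a listed summit were 11 and 10. A site of Erbb4 with fewer reads than those calculated would be weaker than any listed peak and could be missed.

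**Figure D2:**
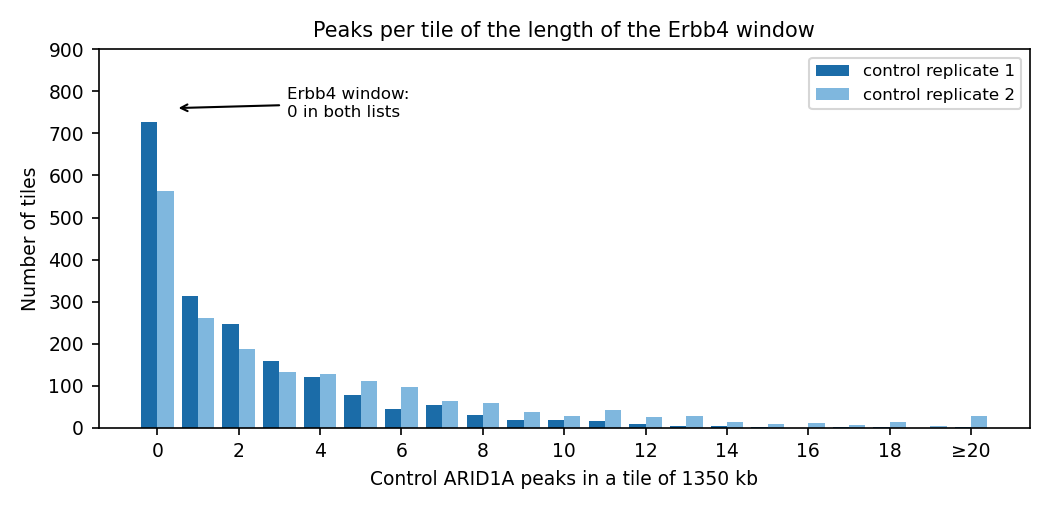
Number of 1350 kb tiles (vertical axis) that hold a given number of control ARID1A peaks (horizontal axis; the last bar pools 20 or more), for control replicates 1 and 2. The Erbb4 window, with 0 peaks in both lists, falls in the tallest bar, which holds 39.1% and 30.3% of the tiles.

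For the shorter windows the same tiling gives the background. No peak of either control list was found in 57.2% of tiles of 370 kb, the length of the Egfr window, and in 66.9% of tiles of 230 kb, the length of the Erbb2 and Erbb3 windows. Control replicate 1, with no peak at Egfr or Erbb2, had none in 69.9% of the longer and 78.2% of the shorter tiles, and control replicate 2 had none in 60.2% and 69.5%. At least 2 peaks of control replicate 2, as at Egfr, were in 23.3% of tiles of 370 kb. At least 1, as at Erbb2, was in 30.5% of tiles of 230 kb. The 2 and 3 peaks at Erbb3 were reached in 8.71% of such tiles in control replicate 1 and 8.23% in control replicate 2. As given, the Erbb3 window was thus fuller than most tiles in both control libraries.

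Over all 4 windows the density was 0.917 and 2.75 peaks per Mb in control replicates 1 and 2, which is 0.564 and 0.976 times that of the whole list. Erbb4 makes up most of the length. Without it, the windows of Egfr, Erbb2 and Erbb3 had 2.41 and 7.23 peaks per Mb, 1.48 and 2.56 times the whole list. Those 3 genes lie on chromosomes 10 and 11, where the control lists had 2.54 to 2.87 peaks per Mb in replicate 1 and 4.75 to 4.91 in replicate 2. Against its own chromosome, Erbb3 stood at 8.70 and 13.0 peaks per Mb, Egfr at 0 and 5.41, and Erbb2 at 0 and 4.35.

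Few of these peaks were found in both control libraries. Of the 2 peaks of control replicate 1, 1 was also in control replicate 2, where the share over the whole list was 71.3%. Of the 6 peaks of control replicate 2, 1 was also in control replicate 1 (16.7%, exact Clopper-Pearson 95% interval 0.421% to 64.1%), against 40.4% over the whole list. With so few peaks the interval includes the share of the whole list. The 5 peaks of control replicate 2 that were missing from replicate 1 carried 13 to 23 reads, and 10 to 16 reads at their local input would reach the smallest −log10 p of replicate 1. At equal density that bound was reached by 99.7% of all peaks of control replicate 2. This share was nearly fixed in advance, since both lists have an input background of 0.771 and smallest −log10 p of 4.43 and 4.25. It therefore does not tell why a peak is missing from replicate 1. A call also needs width, and no list holds a peak under 200 bp.

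In strength the receptor-window peaks spread over the lower and middle range of their lists, apart from the Egfr peak inside the gene span and the shared Erbb3 region in control replicate 2. That region ranked at the 73.6th percentile there and at the 46.2th in control replicate 1. Their scores ranked between the 19.2th and the 84.4th percentile, with a median of 39.6 over the 8 peaks. The fold had a median of 5.40 and ran from 4.41 to 7.56, beside a median of 5.84 in each whole control list. Widths ran from 206 to 395 bp, beside a median of 288 bp. The median local input at the summits was 1.69 times the background, against 1.35 and 1.40 times over the whole lists of control replicates 1 and 2. It was highest at Erbb3, with 1.56 to 2.59 times at its 5 peaks, and lower at Egfr and Erbb2, with 1.04 to 1.56 times. The part of the input in these calls was not tested.

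**Figure D3:**
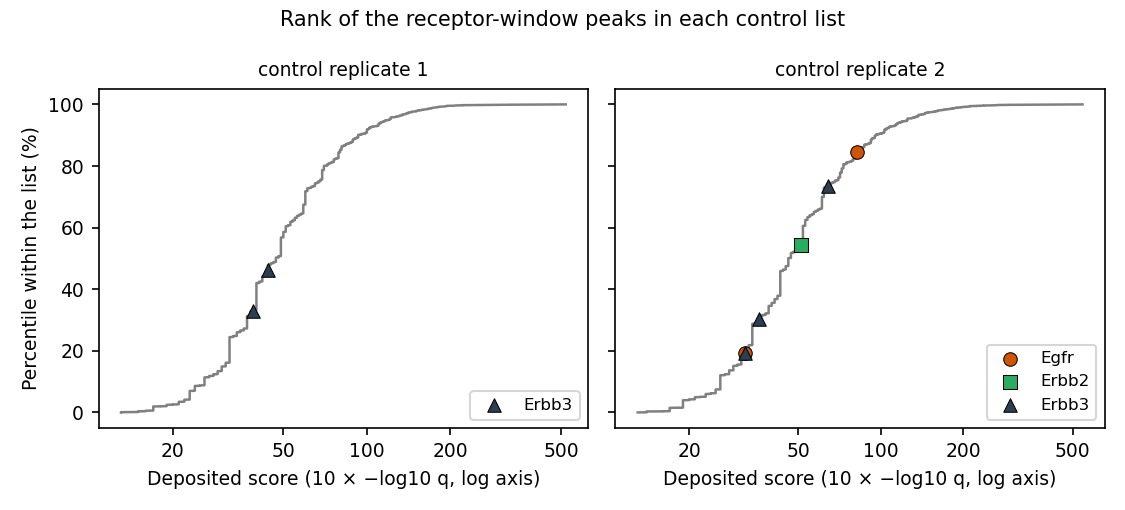
Percentile within the list (vertical axis, %) against the deposited score (horizontal axis, log scale) for control replicates 1 and 2; the grey line is the whole list and the symbols are the receptor-window peaks. The Egfr peak inside the gene span is highest, at the 84.4th percentile, and 5 of the 8 symbols lie below the 50th.

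With EGF, no receptor window held a peak. Across the 4 windows the number of peaks was 2 and 6 in the control libraries (mean 4.0 ± 2.83, SD, n = 2) and 0 and 0 with EGF. The length under peaks was 471 and 1789 bp in the control libraries and 0 bp in both EGF libraries. In number and in length, both control libraries lay above both EGF libraries; a two-sided exact permutation test gave p = 0.33 for each, and no smaller p is possible with 2 libraries a group. Within the approximate spans of the genes alone, control replicates 1 and 2 held 0 and 2 peaks, and control replicate 1 then did not differ from the EGF libraries. Of all peaks of control replicates 1 and 2, 98.5% and 99.2% were overlapped by no EGF peak, a share near that of the receptor windows, where it was 8 of 8. The EGF peak nearest to any of the windows was 3094 kb from Erbb4, and the EGF peak nearest to the Erbb3 window was 17415 kb from it.

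The 8 peaks are 7 sites, since the shared Erbb3 region is listed once per control library, and most would not have reached the weakest peaks of the EGF lists at an unchanged read density. The −log10 p of each peak was recomputed for the same read density and the same ratio of local input to background, at the scaling and input depth of the EGF lists. It then fell to between 4.67 and 9.06. Only 2 of the 8 peaks reached the 7.07 of EGF replicate 1, and 1 of them the 8.00 of EGF replicate 2. Over the whole lists of control replicates 1 and 2, the bound of EGF replicate 1 was reached by 33.0% and 34.0% of peaks, and that of EGF replicate 2 by 20.6% and 21.5%. The 5 sites that reached neither bound would have been weaker than any listed EGF peak. Whether they could have been called there was not tested. The smallest value of a list is that of its weakest peak and may exceed what a call required. Both bounds were taken from the short EGF lists themselves, so this comparison does not tell why those lists hold no peak here. The smallest −log10 q was also higher in EGF replicates 1 and 2, at 2.07 and 2.47, than in control replicates 1 and 2, at 1.31 and 1.38.

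The Egfr peak inside the gene span was the one that reached both bounds, with a recomputed −log10 p of 9.06. At the same density it would have had 21.5 reads in EGF replicate 1, where 19 reach the smallest −log10 p, and 24.98 in EGF replicate 2, where 25 do. In EGF replicate 2 it thus reached the bound by its scaled density, rounded down, but fell just short in whole reads. The peak was called in neither. The margin is small beside the interval of its 23 reads, and the site was not called in control replicate 1 either. The shared Erbb3 region reached 7.29 from control replicate 2, just above the bound of EGF replicate 1, and 5.90 from control replicate 1, below it. Of all peaks of control replicate 2 that reached the bound of EGF replicate 1, 97.9% were absent from that list, as were both of these sites.

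**Figure D4:**
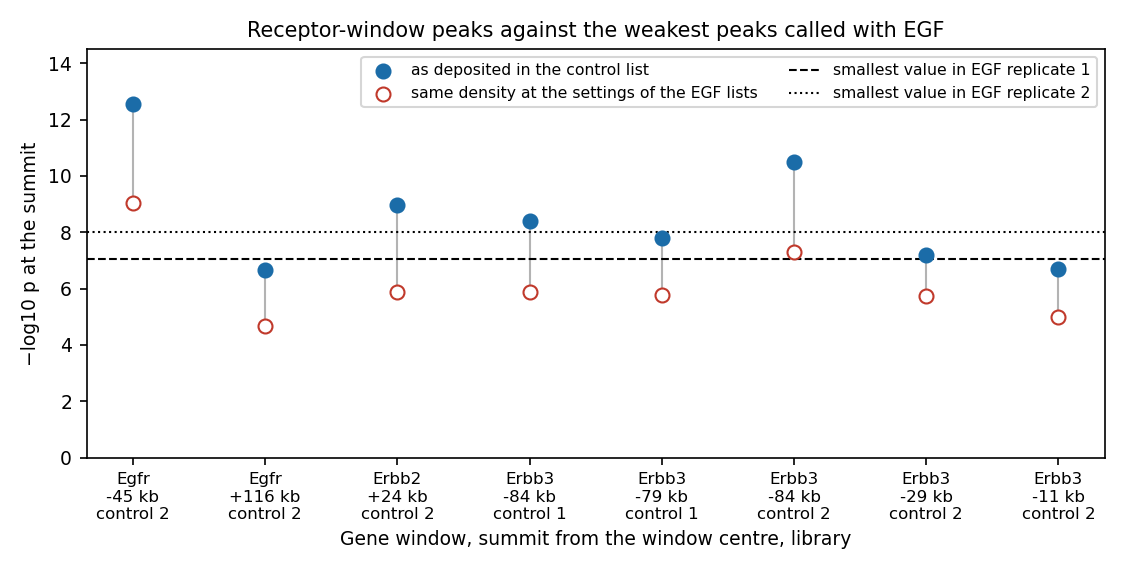
The −log10 p at the summit (vertical axis) of the 8 receptor-window peaks (horizontal axis, by gene, distance from the window centre and control library), as deposited (filled) and for the same density at the settings of the EGF lists (open), with the smallest values called in EGF replicate 1 (dashed) and EGF replicate 2 (dotted). Of the open points, 2 lie above the dashed line and 1 above the dotted line.

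The window edges decide which peaks count. A site found in both control lists lay 9.84 and 9.81 kb below the Erbb2 window, at chr11:98159890-98160157 in control replicate 1 and chr11:98159864-98160187 in control replicate 2. Its fold of 8.65 and 8.24, with 22 and 20 reads over an input equal to the background, was higher than that of any peak inside the 4 windows. A second site of both lists was 90.6 and 90.5 kb below the Egfr window, with a fold of 4.24 and 6.94. A peak of control replicate 2 with a fold of 6.89 was 3.19 kb below the Erbb3 window. In all, the 100 kb beyond each edge held 3 and 10 peaks of control replicates 1 and 2, none of them around Erbb4 and none called with EGF.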

How the data were processed

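ARID1A ChIP-seq was done in 4 libraries, 2 per group. Per the submitters' processing notes, the authors worked in mm9 with MACS2 2.1.1.20160309.0, which also names the deposited peaks, besides Bowtie2 2.3.4.2, deepTools 3.0.2 and SAMtools; the sources used here give neither options nor depth. Each library has 1 deposited peak list, with a score, a fold ratio, and −log10 p and −log10 q of the summit for each peak. Fold and p come from 1 pair of numbers, so whole reads and local input could be recovered, with 1 scaling factor per list. All 11220 peaks had 1 solution within 2e-04 of a whole read, with the factor fitted to these same peaks. The recovery was tested on data simulated with the same formula, which does not show that the deposited values follow it. The 200 bp unit and the scaling factors were inferred here and are not stated by the authors. Window totals were compared by an exact two-sided permutation test over 6 assignments of the libraries, and peaks by overlap of at least 1 bp (Python 3.11.15, SciPy 1.17.1). All 8 peaks are named, as the naming rule asked for up to 40. Members, lists and tests were chosen with earlier results of these data known. Receptor ligands and adaptors were to be counted too, but no mm9 annotation or sequence was used here, so they and the peak sequences were not analysed. Names of neighbouring genes come from the RefSeq annotation of GRCm38.p6.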

Additional observations from a re-analysis of the deposited data

How the results depend on the processing

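Of 69 alternative values for 12 results, all planned, 52 were counted as the same, 17 as moved and 0 as reversed. A value counted as the same could still change in size. The difference in number, EGF minus control, was −4.0 peaks, but −1.0 with the windows narrowed and −10.5 with them extended. For the length under peaks it was −1130 bp, but −313.5 and −2992.5 bp. Windows without their outer 100 kb gave a mean of 0.5 control peaks at Egfr, 0.5 at Erbb3 and 0 at Erbb2, so 2 windows held no control peak, and a density 0.257 times that of the whole list. Control replicate 1 then had 0 peaks and the groups overlapped (exact permutation p = 1.0). Windows extended by 100 kb gave 4.0, 4.0 and 2.5 peaks at Egfr, Erbb3 and Erbb2 and 1.47 times the density. With 1 bound on −log10 p in all lists, Egfr had 0.5 and Erbb3 1.0, and the differences, EGF minus control, were −2.0 peaks and −586.5 bp. The share of control peaks in both control lists was 25.0% and dropped to 0% under a reciprocal overlap of 50%. The median score percentile, 39.6, was 37.0 at q of at most 0.005, 37.2 by fold, 34.5 by width and 39.6 to 42.3 with each control library left out. Of the 8 peaks, 1 reached the bound of EGF replicate 2 and 2 that of EGF replicate 1. Without each library in turn, the difference in number, EGF minus control, ran from −6.0 to −2.0 peaks; without control replicate 2, no Egfr or Erbb2 peak is left. With the replicate number as a block it was −4.0 peaks and −1130 bp (exact permutation p = 0.5, as small as 2 pairs allow); the numbers are not known to pair libraries, and over 16 sites with a peak in every list, libraries of equal number deviated with a correlation of −0.0893. Comparing summit reads over local input was not run, since the windows hold no EGF peak.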
